A study of Mus musculus with 9 samples.

Results

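Amino acid transporter genes were examined in cultured neonatal mouse ventricular myocytes (NMVMs), the muscle cells of the newborn heart ventricle. The 10 genes were Slc7a1, Slc7a3, Slc7a5, Slc3a2, Slc1a4, Slc1a5, Slc38a1, Slc38a2, Slc6a9 and Slc6a6, each taken from the count table by its gene name. They are 10 of the 55401 genes in the table, and all 10 were among the 16762 genes that passed the filter on low counts. RNA-seq had been performed on poly(A)-enriched RNA of 9 libraries, 3 in each of the control, hypoxia and hypoxia + rSRGN groups. All cells were wild-type and came from C57BL/6J pups of 1 day, grown in DMEM with 10% fetal bovine serum. Control cultures kept this complete medium and normal oxygen. Hypoxia cultures spent 6 h in a sealed chamber with an oxygen absorber, in DMEM that lacked glucose and serum. Hypoxia + rSRGN cultures received recombinant SRGN (serglycin, a secreted proteoglycan) during the same 6 h, at a dose not given in the sources used here. Low oxygen and the change of medium therefore cannot be told apart in any comparison with control, whereas the labels name the added protein as the difference between the hypoxic groups. Nothing in the labels says whether the libraries of a group came from separate isolations or pooled pups, so the p-values measure only the spread between these samples.

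Amino acids cross the plasma membrane through carriers of several families. Members of the SLC7 family carry cationic or large neutral amino acids, and some of them reach the membrane only when bound to the heavy chain encoded by Slc3a2. SLC1 exchangers swap small neutral amino acids, SLC38 carriers bring in neutral amino acids together with sodium, and SLC6 carriers use sodium and chloride to take up glycine, taurine and others. Several of these genes are known targets of ATF4, the transcription factor of the integrated stress response, which acts when amino acids run short or proteins misfold. In the heart, taurine is among the most abundant free amino acids, and glutamine and the branched-chain amino acids serve as fuel and as signals for growth.

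Library totals ranged from 21669017 to 22781557 fragments in control, from 16583985 to 18148474 in hypoxia and from 16640239 to 20826701 in hypoxia + rSRGN. Levels are given as CPM, counts per 1000000 fragments after TMM scaling. A gene was called when its Benjamini-Hochberg adjusted p was below 0.05 and its fold change at least 1.5. Cell type markers moved with the groups. All 15 cardiomyocyte markers were detected in every library, and their summed level was 51722 to 63248 CPM in control, 4327 to 6749 CPM in hypoxia and 8656 to 9304 CPM in hypoxia + rSRGN. All 15 were called lower in hypoxia than in control. All 15 were also higher with rSRGN than in hypoxia alone at an unadjusted p below 0.05, and 12 of them were called. The 10 fibroblast markers summed to 11378 to 13430 CPM in control, 22260 to 25009 CPM in hypoxia and 25137 to 26150 CPM in hypoxia + rSRGN, with all 10 higher in hypoxia than in control at an unadjusted p below 0.05 and 8 of them called. With rSRGN against hypoxia alone, 2 were higher and 2 lower at an unadjusted p below 0.05. Tcf21 alone was called there, as lower (log2 fold change -0.76, adjusted p = 3.85e-05). Of the macrophage markers 9 of 10 were called lower in hypoxia (231 to 248 CPM in control and 25.4 to 28.8 CPM in hypoxia), and Adgre1, C1qa and C1qc were at 0 in some libraries. In the same comparison 5 of 8 endothelial markers were called lower, 1 of 5 smooth muscle markers higher and 1 lower, and the 5 erythroid markers were too low to be tested. The part of these shifts in the transporter results was not tested, and fewer cells of a type cannot be told apart from less RNA per cell.

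In hypoxia against control, 9 of the 10 transporter genes were called, and the same 9 had an adjusted p below 0.05 at any fold, where 70.9% of all genes tested had one. Higher were 6 of them, namely Slc7a3, Slc3a2, Slc1a5, Slc1a4, Slc7a5 and Slc6a9, where 26.4% of all genes tested were called higher. Lower were 3, namely Slc38a2, Slc6a6 and Slc38a1, where 25.1% of all genes tested were called lower. Slc7a1 was not called. The median log2 fold change of the 10 was 0.96, against 0.05 over all genes tested. The 3 libraries of hypoxia did not overlap those of control for 9 of the 10 genes, as was the case for 73% of all genes tested.

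**Figure D1:**
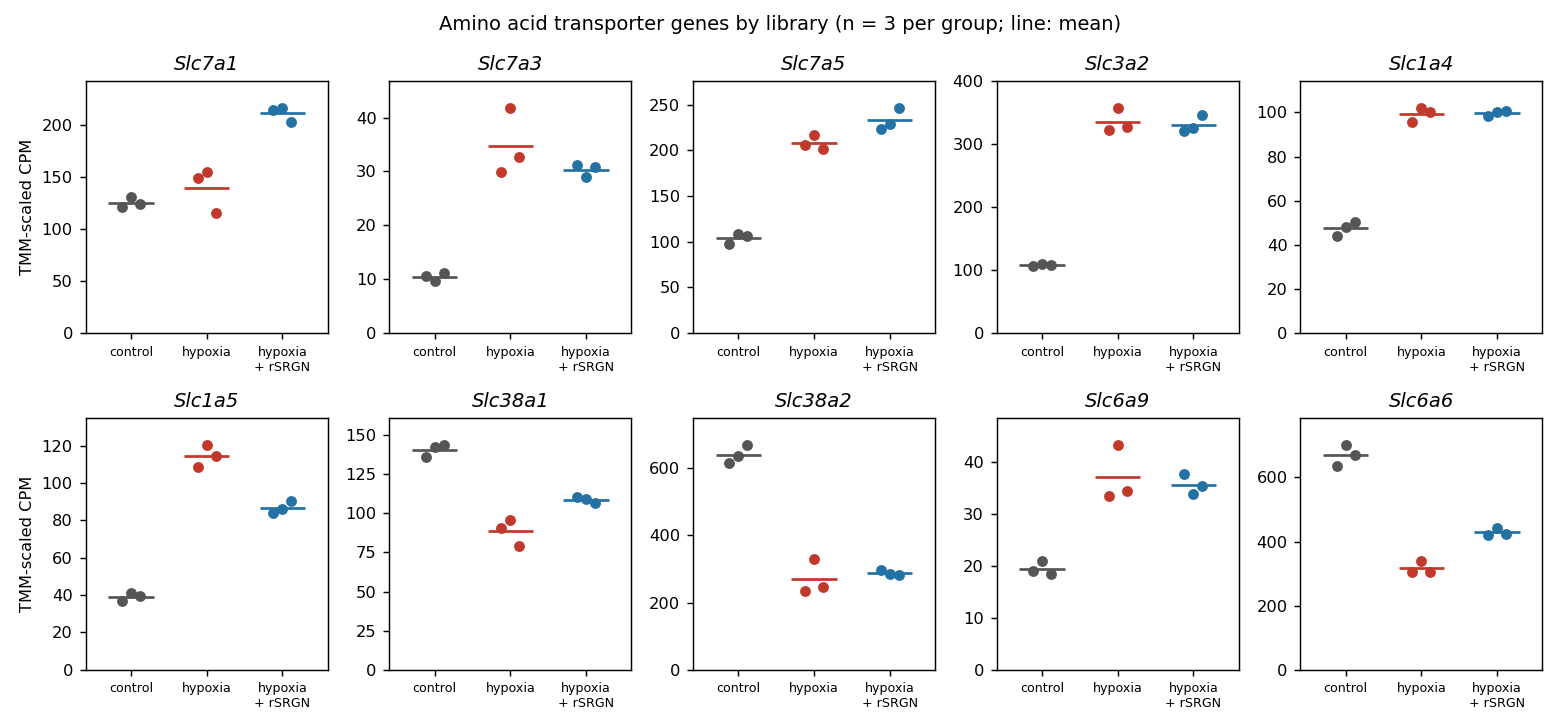
Level of each of the 10 transporter genes in TMM-scaled CPM (vertical axis, from 0, a scale of its own for each gene) in the 3 groups. Points are libraries (n = 3 per group) and lines are group means; Slc7a3, Slc7a5, Slc3a2, Slc1a4, Slc1a5 and Slc6a9 stand higher in all hypoxia libraries than in all control libraries, Slc38a1, Slc38a2 and Slc6a6 lower, and Slc7a1 overlaps.

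The cationic amino acid carriers Slc7a1 and Slc7a3 import arginine, lysine and ornithine. Slc7a1 (ENSMUSG00000041313.14, minus strand of chromosome 5, 148327410 to 148399904) had 122, 131 and 124 CPM in control and 149, 155 and 116 CPM in hypoxia. Hypoxia replicate 3 lay below every control library while the other two lay above, so the groups overlapped. The log2 fold change was 0.16 (SE 0.087, 95% interval -0.02 to 0.34, adjusted p = 0.112). Without hypoxia replicate 3 it was 0.27 (adjusted p = 0.00275, with 0.00275 to 0.408 over all 17 alternatives), which also stayed under the fold limit. That library had the lowest cardiomyocyte marker sum as well, 4327 CPM.

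Slc7a3 (ENSMUSG00000031297.14, minus strand of chromosome X, 101079210 to 101086020) had 10.6, 9.57 and 11.1 CPM in control and 29.97, 41.8 and 32.7 CPM in hypoxia. Every hypoxia library was well above every control library, and hypoxia replicate 2 was the highest. The gene rose 3.35-fold (log2 fold change 1.74, SE 0.12, adjusted p = 1.64e-11). The related carriers thus stood apart in this comparison, with separate intervals of -0.02 to 0.34 for Slc7a1 and 1.49 to 1.99 for Slc7a3, although the difference between the genes was not itself tested.

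Slc7a5 encodes the light chain, which carries leucine, phenylalanine, tryptophan and other large neutral amino acids, and Slc3a2 the heavy chain that anchors it and several other light chains in the membrane. Slc7a5 (ENSMUSG00000040010.10, minus strand of chromosome 8, 121881150 to 121907694) had 97.6, 108 and 107 CPM in control and 206, 217 and 201 CPM in hypoxia. It rose 2.00-fold (log2 fold change 1.00, SE 0.072, adjusted p = 3.55e-11). Slc3a2 (ENSMUSG00000010095.13, minus strand of chromosome 19, 8706882 to 8723369) had 106, 109 and 108 CPM in control and 323, 357 and 328 CPM in hypoxia. Its rise was 3.12-fold (log2 fold change 1.64, SE 0.071, adjusted p = 4.66e-15). The intervals of the log2 fold change, 0.85 to 1.15 for the light chain and 1.49 to 1.79 for the heavy chain, did not meet.

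Slc1a4 and Slc1a5 encode exchangers for alanine, serine and cysteine, of which the product of Slc1a5 also carries glutamine. Slc1a4 (ENSMUSG00000020142.12, minus strand of chromosome 11, 20302180 to 20332713) had 44.2, 47.9 and 50.4 CPM in control and 95.6, 102 and 100.4 CPM in hypoxia. It rose 2.09-fold (log2 fold change 1.06, SE 0.074, adjusted p = 1.71e-11). Slc1a5 (ENSMUSG00000001918.17, plus strand of chromosome 7, 16781340 to 16798274) had 36.7, 41.1 and 39.3 CPM in control and 108, 120.5 and 114 CPM in hypoxia. Its rise was 2.93-fold (log2 fold change 1.55, SE 0.077, adjusted p = 4.66e-14). For both exchangers the lowest hypoxia library was far above the highest control library.

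Slc38a1 and Slc38a2 encode sodium-coupled carriers that bring in glutamine, alanine and other neutral amino acids. Both went the other way from Slc1a4 and Slc1a5, which does not hold for all genes of these families. Slc38a2 (ENSMUSG00000022462.7, minus strand of chromosome 15, 96687392 to 96699730) had 616, 636 and 670 CPM in control and 235, 329 and 245 CPM in hypoxia. It fell 2.37-fold (log2 fold change -1.25, SE 0.095, adjusted p = 9.4e-11), with hypoxia replicate 2 again the highest of its group. Slc38a1 (ENSMUSG00000023169.15, minus strand of chromosome 15, 96571418 to 96642913) lies on the same strand and had 136, 142 and 144 CPM in control and 90.9, 95.9 and 79.3 CPM in hypoxia. It fell 1.59-fold (log2 fold change -0.67, SE 0.076, adjusted p = 6.19e-08).

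Slc6a9 encodes a glycine carrier and Slc6a6 the taurine carrier. Slc6a9 (ENSMUSG00000028542.17, plus strand of chromosome 4, 117834506 to 117875198) had 18.9, 21.0 and 18.5 CPM in control and 33.5, 43.2 and 34.3 CPM in hypoxia. It rose 1.90-fold (log2 fold change 0.93, SE 0.11, adjusted p = 8.8e-08). The counting used no strand option, and Slc6a9 shares 1429 exon bases with Ccdc24, 511 with Gm17114 and 46 with B4galt2, all on the opposite strand, so that its counts are uncertain. Slc6a6 (ENSMUSG00000030096.8, plus strand of chromosome 6, 91684053 to 91759066) had 635, 702 and 670 CPM in control and 305, 340 and 305 CPM in hypoxia. It fell 2.11-fold (log2 fold change -1.08, SE 0.073, adjusted p = 1.03e-11). It shares 117 exon bases with the opposite-strand gene Gm44981, which had 165 fragments in all 9 libraries together. Its hypoxia mean of 317 CPM came after that of Slc3a2 alone (336 CPM).

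Summed over the 10 genes, the level was 1822 to 1947 CPM in control, 1556 to 1802 CPM in hypoxia and 1837 to 1864 CPM in hypoxia + rSRGN. By CPM the sum was lower in all hypoxia libraries than in all control libraries, and Slc38a2 and Slc6a6, which fell, made up most of it in control. Per kb of exon the order turned, with sums of 246 to 263 in control, 293 to 331 in hypoxia and 320.0 to 333 in hypoxia + rSRGN.

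Since several of the genes moved together, their promoters were searched for short motifs. RefSeq sequences from 250 bases before to 50 bases after the start site (GRCm38.p6) were at hand for 5 of the 10 genes, Slc7a1, Slc3a2, Slc1a4, Slc38a2 and Slc6a9, with 8 start sites in all. On both strands, the search was for TGATGNAA (the core shared by C/EBP-ATF response elements, through which ATF4 acts), CACGTG (the E-box), ACGTG (the core of hypoxia response elements, which the E-box also contains) and TTCNNGAA (the core of heat shock elements). Of 32851 promoters, 3.97% held the first, 7.15% the second, 19.6% the third and 8.52% the fourth. Over the 8 start sites of the 5 genes, the E-box matched in 0 and each of the other motifs in 1. Matches were thus found in 3 of the 5 genes. This count joins all motifs and start sites, so it cannot be set against shares per motif and promoter. Whether the motifs were more frequent here than in other promoters was not tested. The matches are shown here 5′ to 3′ on the strand of the gene, in capitals.
Slc1a4: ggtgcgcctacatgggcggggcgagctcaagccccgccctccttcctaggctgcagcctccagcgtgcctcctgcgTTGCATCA
Slc3a2: gtcaagacaaattCACGTttgttattctaa
Slc7a1: aaacatttcctTTCCTGAAaagaagggaaa
The Slc1a4 stretch (chr11:20332710-20332793) ends with the C/EBP-ATF core on the opposite strand, which begins 4 bases before the start site and runs 4 bases into the transcript. The Slc3a2 stretch (chr19:8714045-8714074) holds the hypoxia response core on the opposite strand, 164 bases before the start site. The Slc7a1 stretch (chr5:148392909-148392938) holds the heat shock core 112 bases before the second of its annotated start sites. The Slc3a2 and Slc7a1 stretches lie within annotated exons of other transcripts of the same genes. A match describes these letters and is not a binding site, and Slc38a2 and Slc6a9 held none of the motifs within these windows.

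The comparison of hypoxia + rSRGN with hypoxia asked whether the added protein altered the transporter genes during the 6 h. Of the 10 genes, Slc7a1 alone was called, as higher, where 2.27% of all genes tested were called higher. By edgeR and by DESeq2 0 were called lower, where edgeR called 0.859% of all genes tested lower. At an unadjusted p of edgeR below 0.05 were 5 of the 10, 4 higher and 1 lower, against 29.4% of all genes tested. The shares of genes called move with single libraries. Over all genes tested, the 381 higher calls became 201 without hypoxia replicate 3 and the 144 lower calls became 70 without hypoxia + rSRGN replicate 2. At any fold, the adjusted p of edgeR was below 0.05 for 4 of the 10 (Slc7a1, Slc6a6, Slc1a5 and Slc38a1), against 16.6% of all genes tested. The groups did not overlap for 5 of the 10, these 4 and Slc7a5, against 32% of all genes tested. The median log2 fold change of the 10 was 0.05, against -0.03 over all genes tested. This comparison uses the same hypoxia libraries as that of hypoxia with control, so the values of the pair are given side by side and not related to each other.

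**Figure D2:**
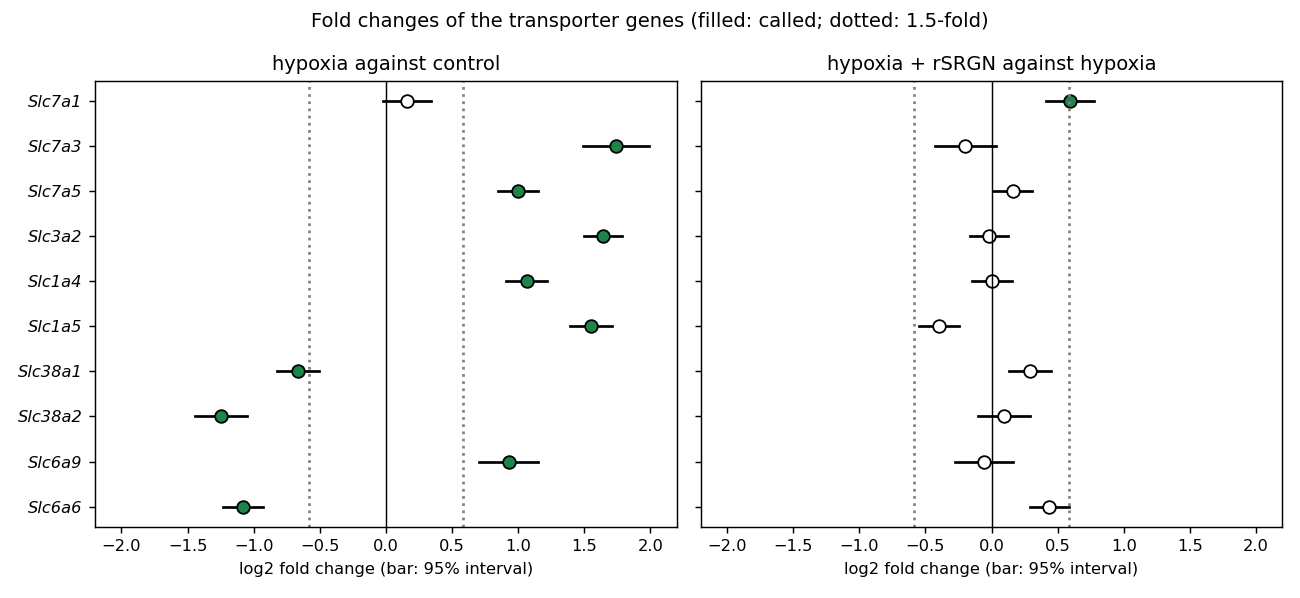
Log2 fold change of the 10 transporter genes (points) with 95% intervals (bars) in hypoxia against control, on the left, and hypoxia + rSRGN against hypoxia, on the right. Filled points were called and dotted lines mark the 1.5-fold limit; 9 points are filled on the left, from -1.25 to 1.74, and Slc7a1 alone is filled on the right, at 0.60.

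Slc7a1 had 215, 217 and 203 CPM in hypoxia + rSRGN, against 149, 155 and 116 CPM in hypoxia. Every library with rSRGN was above every library of the other groups. The gene rose 1.51-fold (log2 fold change 0.60, SE 0.087, 95% interval 0.41 to 0.78, adjusted p = 0.000156), just past the fold limit of 1.5. The call was lost to the fold limit without hypoxia replicate 3 (log2 fold change 0.48), without hypoxia + rSRGN replicate 1 (0.58) or replicate 2 (0.58), and with library size alone as the scale (0.58). Over the 17 alternatives the adjusted p ranged from 1.77e-12 to 0.00212. The other cationic carrier, Slc7a3, had 31.2, 29.0 and 30.8 CPM with rSRGN, of which 1 lay below and 2 within the 29.97 to 41.8 CPM of hypoxia (log2 fold change -0.20, 95% interval -0.43 to 0.03, adjusted p = 0.251).

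Slc1a5 had 83.7, 86.1 and 90.4 CPM with rSRGN, against 108 to 120.5 CPM in hypoxia. All 3 libraries were below all 3 of hypoxia and above all 3 of control. The log2 fold change was -0.40 (SE 0.074, 95% interval -0.55 to -0.25, adjusted p = 0.000965), under the fold limit. Its relative Slc1a4 had 98.2, 99.97 and 100.6 CPM with rSRGN and 95.6 to 102 CPM in hypoxia, a log2 fold change of 0.0047 with an interval of -0.14 to 0.15 (adjusted p = 0.977).

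Slc6a6 had 420, 444 and 423 CPM with rSRGN, against 305 to 340 CPM in hypoxia. The libraries with rSRGN stood between the other groups without overlap. The log2 fold change was 0.44 (SE 0.072, 95% interval 0.29 to 0.59, adjusted p = 0.00038), under the fold limit. Slc38a1 had 110.3, 109 and 107 CPM with rSRGN, against 79.3 to 95.9 CPM in hypoxia, and also stood between hypoxia and control (log2 fold change 0.29, SE 0.076, adjusted p = 0.0113, with a range of 0.000859 to 0.0771 over the alternatives, highest without hypoxia replicate 3). Slc38a2 had 296, 286 and 282 CPM with rSRGN, all within the 235 to 329 CPM of hypoxia (log2 fold change 0.10, 95% interval -0.10 to 0.29, adjusted p = 0.549). Without hypoxia replicate 2, its highest hypoxia library, the log2 fold change was 0.26 with an adjusted p of 0.00573, under the fold limit, and over the alternatives the adjusted p ranged from 0.00573 to 0.982.

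Neither chain of the large neutral carrier was called. Slc7a5 had 223, 229 and 246 CPM with rSRGN, each above the highest hypoxia library at 217 CPM, but the log2 fold change of 0.16 (95% interval 0.01 to 0.31) had an adjusted p of 0.129. By DESeq2 the adjusted p was 0.0398 at a log2 fold change of 0.19, under the fold limit, and over the alternatives it ranged from 0.0398 to 0.332. Slc3a2 had 321, 326 and 346 CPM with rSRGN and 323 to 357 CPM in hypoxia, a log2 fold change of -0.02 (95% interval -0.16 to 0.12, adjusted p = 0.883). Slc6a9 had 37.7, 33.7 and 35.3 CPM with rSRGN and 33.5 to 43.2 CPM in hypoxia (log2 fold change -0.06, 95% interval -0.27 to 0.16, adjusted p = 0.772). The sum of the 15 cardiomyocyte markers moved in the same comparison, from 4327 to 6749 CPM without rSRGN to 8656 to 9304 CPM with it. The sum of the fibroblast markers was also higher in all libraries with rSRGN, as was that of the macrophage markers (29.8 to 35.6 CPM, against 25.4 to 28.8 CPM). That of the smooth muscle markers was lower (1716 to 1839 CPM, against 2005 to 2297 CPM). The part of these shifts in the values of Slc7a1, Slc6a6, Slc38a1 and Slc1a5 was not tested.

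In hypoxia + rSRGN against control, 9 of the 10 genes were called. All 10 had an adjusted p below 0.05 at any fold, against 68.6% of all genes tested, and groups that did not overlap, against 73.3%. Higher were 7, the same 6 as in hypoxia and Slc7a1, where 24.1% of all genes tested were called higher. Lower were Slc38a2 and Slc6a6, where 24.7% of all genes tested were called lower. Slc7a1 rose 1.68-fold (log2 fold change 0.75, SE 0.087, adjusted p = 9.5e-08). Slc38a1 had a log2 fold change of -0.37 (SE 0.075, adjusted p = 0.000135), under the fold limit. Among those called were Slc3a2 (log2 fold change 1.62, SE 0.071), Slc7a3 (1.54, SE 0.12) and Slc38a2 (-1.15, SE 0.095). These values share the control libraries with the first comparison and the rSRGN libraries with the second.

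To compare levels between genes, CPM was divided by the exon length of each gene in kb, as given in the count table. This length joins the exons of all annotated transcripts, from 3529 bases for Slc3a2 to 17236 bases for Slc38a1, so that the order depends on the annotation. In control, Slc6a6 (79.1 ± 4.0 CPM per kb, SD, n = 3) and Slc38a2 (72.5 ± 3.1) were highest and overlapped in their libraries. Slc3a2 (30.5 ± 0.44) and Slc7a5 (28.1 ± 1.5) followed, then Slc1a4 (12.1 ± 0.80) and Slc7a1 (10.9 ± 0.41), which overlapped, and then Slc1a5 (9.35 ± 0.54) and Slc38a1 (8.17 ± 0.23). Slc6a9 (3.78 ± 0.26) and Slc7a3 (2.75 ± 0.20) were lowest. The level of Slc6a9 per kb is uncertain in every group, since 1429 of its 5141 exon bases are shared with the opposite-strand gene Ccdc24.

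In hypoxia the order was led by Slc3a2 (95.2 ± 5.3 CPM per kb, SD, n = 3) and Slc7a5 (56.1 ± 2.2), which stood apart from each other and from the rest. Slc6a6 (37.5 ± 2.4), Slc38a2 (30.5 ± 5.8) and Slc1a5 (27.4 ± 1.4) came next, each overlapping its neighbour, and Slc1a4 had 25.3 ± 0.85. Slc7a1 (12.1 ± 1.8), Slc7a3 (9.20 ± 1.6) and Slc6a9 (7.20 ± 1.1) likewise overlapped neighbour by neighbour. Slc38a1 was lowest (5.15 ± 0.50). With rSRGN, Slc3a2 (93.8 ± 3.8) and Slc7a5 (62.8 ± 3.3) again led, Slc6a6 had 50.7 ± 1.5 and Slc7a1 18.4 ± 0.66, and no neighbours in the order overlapped.

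**Figure D3:**
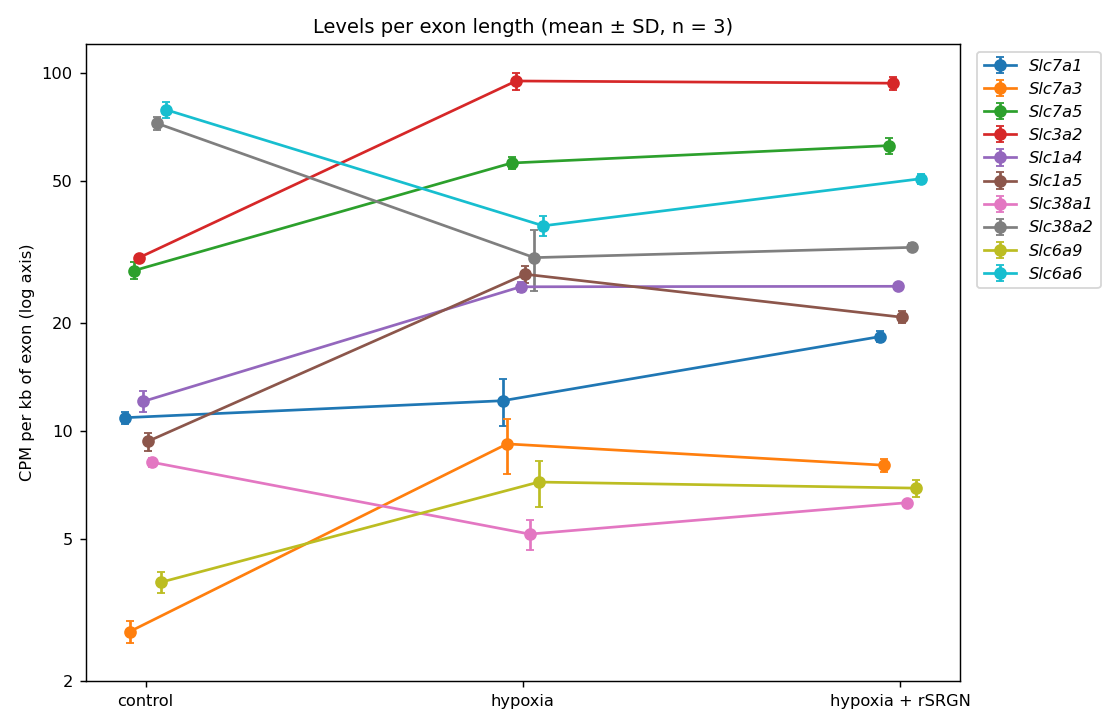
Level per exon length of the 10 transporter genes in CPM per kb (vertical log axis) in control, hypoxia and hypoxia + rSRGN. Points are means and bars SD of 3 libraries; Slc6a6 and Slc38a2 lead in control at 79.1 and 72.5, and Slc3a2 and Slc7a5 lead in hypoxia at 95.2 and 56.1.

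Ratios of related genes within a library describe how far the pairs moved apart. The heavy chain Slc3a2 over the light chain Slc7a5, per kb, was 1.14, 1.06 and 1.06 in control, 1.65, 1.73 and 1.71 in hypoxia and 1.51, 1.499 and 1.48 in hypoxia + rSRGN. The 3 groups did not overlap, with hypoxia highest. Slc1a5 over Slc1a4 was 0.781, 0.809 and 0.733 in control, 1.07, 1.11 and 1.07 in hypoxia and 0.802, 0.810 and 0.845 with rSRGN. Slc1a5 was thus below Slc1a4 in all libraries of control and of hypoxia + rSRGN, which overlapped, and above it in all 3 of hypoxia.

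Slc38a2 over Slc38a1 was 8.82, 8.71 and 9.07 in control, 5.04, 6.69 and 6.03 in hypoxia and 5.24, 5.12 and 5.16 with rSRGN, where the hypoxic groups overlapped. Slc7a1 over Slc7a3 was 3.78, 4.48 and 3.69 in control, 1.63, 1.22 and 1.17 in hypoxia and 2.26, 2.46 and 2.16 with rSRGN. The 3 groups did not overlap, with hypoxia lowest and rSRGN between. No test was made of the ratios.

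**Figure D4:**
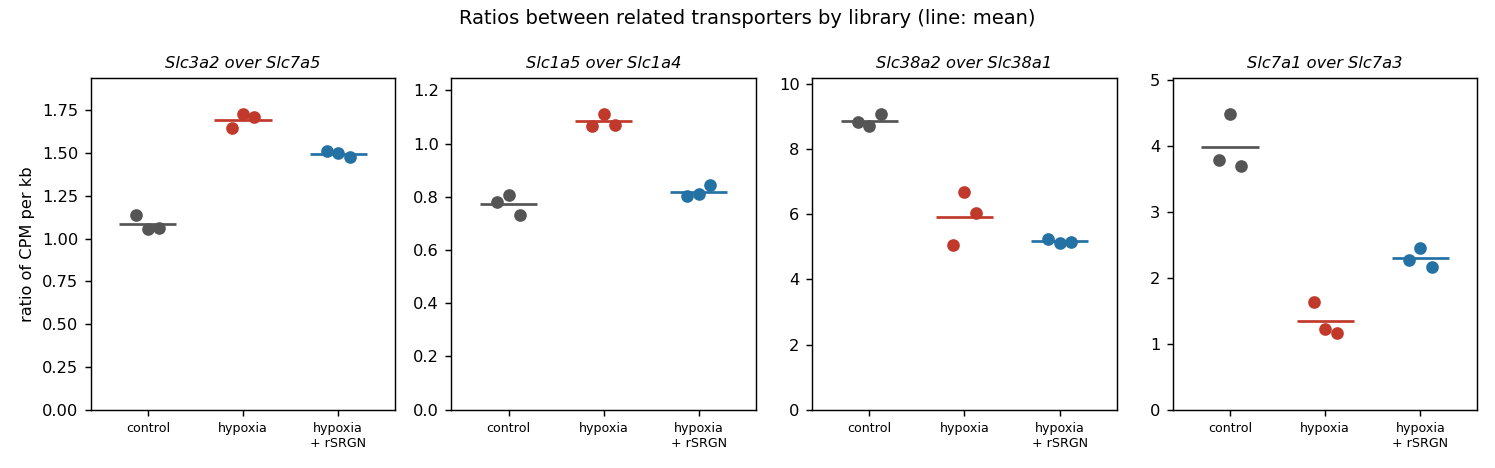
Ratios of CPM per kb between related transporter genes in each library (points, n = 3 per group) with group means (lines). The ratio of Slc3a2 to Slc7a5 runs from 1.06 to 1.14 in control and from 1.65 to 1.73 in hypoxia, and that of Slc7a1 to Slc7a3 from 3.69 to 4.48 and from 1.17 to 1.63.

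The other amino acid transporters of the plasma membrane were counted for comparison. Of 39 listed, 23 were tested, and in hypoxia against control 5 were called higher and 9 lower, around a median log2 fold change of 0.29, where 26.4% of all genes tested were called higher and 25.1% lower. With a filter of at least 10 counts in every library, 9 were called. Higher, with group means given from control to hypoxia, were Slc43a1, a carrier of large neutral amino acids (from 3.45 to 13.05 CPM, log2 fold change 1.92, SE 0.16), the glutamine carrier Slc38a3 (from 1.26 to 2.95 CPM, 1.23, SE 0.32) and the glutamate carrier Slc1a6 (from 3.16 to 7.22 CPM, 1.19, SE 0.20), with adjusted p from 3.22e-10 to 0.0018. The other two, Slc1a2 and Slc6a7, are named after their values were seen. Of the 9 lower, the largest falls at a mean of at least 1 CPM were those of Slc7a8, a light chain that also binds the product of Slc3a2 (from 4.52 to 1.36 CPM, log2 fold change -1.73, SE 0.35), Slc43a2 (from 15.4 to 4.81 CPM, -1.67, SE 0.19) and Slc6a17 (from 11.1 to 5.21 CPM, -1.08, SE 0.17).

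In hypoxia + rSRGN against hypoxia, 1 of these 23 was called, as higher, where 2.27% of all genes tested were called higher. Slc16a10, a carrier of aromatic amino acids, had 19.2 to 29.1 CPM in hypoxia and 33.1 to 38.4 CPM with rSRGN (log2 fold change 0.65, SE 0.13, adjusted p = 0.00159). In hypoxia against control it had a log2 fold change of 0.11 (adjusted p = 0.44), so that by calls it stood as Slc7a1 did in both comparisons. The call of Slc16a10 was lost without hypoxia replicate 1, hypoxia replicate 3 or hypoxia + rSRGN replicate 2.

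Inside the cell, 9 lysosomal and other intracellular transporters were tested, of which Slc38a7 (log2 fold change 0.92, SE 0.075) and Slc36a1 (0.78, SE 0.093) rose and Mfsd12 (-1.41, SE 0.15) fell in hypoxia against control, where 26.4% of all genes tested were called higher and 25.1% lower. Slc38a7 exports glutamine from the lysosome and, unlike Slc38a1 and Slc38a2, rose. Of 8 mitochondrial carriers tested, 2 rose and 4 fell, to be read against the same shares. The falls included both aspartate-glutamate carriers of the malate-aspartate shuttle, Slc25a13 (from 54.1 to 8.04 CPM, log2 fold change -2.75, SE 0.13) and Slc25a12 (from 145 to 45.7 CPM, -1.66, SE 0.076), and Slc25a44, a carrier of branched-chain amino acids (-0.80, SE 0.11). The glycine carrier Slc25a38 rose (0.68, SE 0.11), as did Slc6a9 at the plasma membrane. In hypoxia + rSRGN against hypoxia, edgeR and DESeq2 called 0 of the 9 and 0 of the 8, where edgeR called 2.27% of all genes tested higher and 0.859% lower. At an unadjusted p below 0.05 were 2 and 0, against 29.4% of all genes tested.

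**Figure D5:**
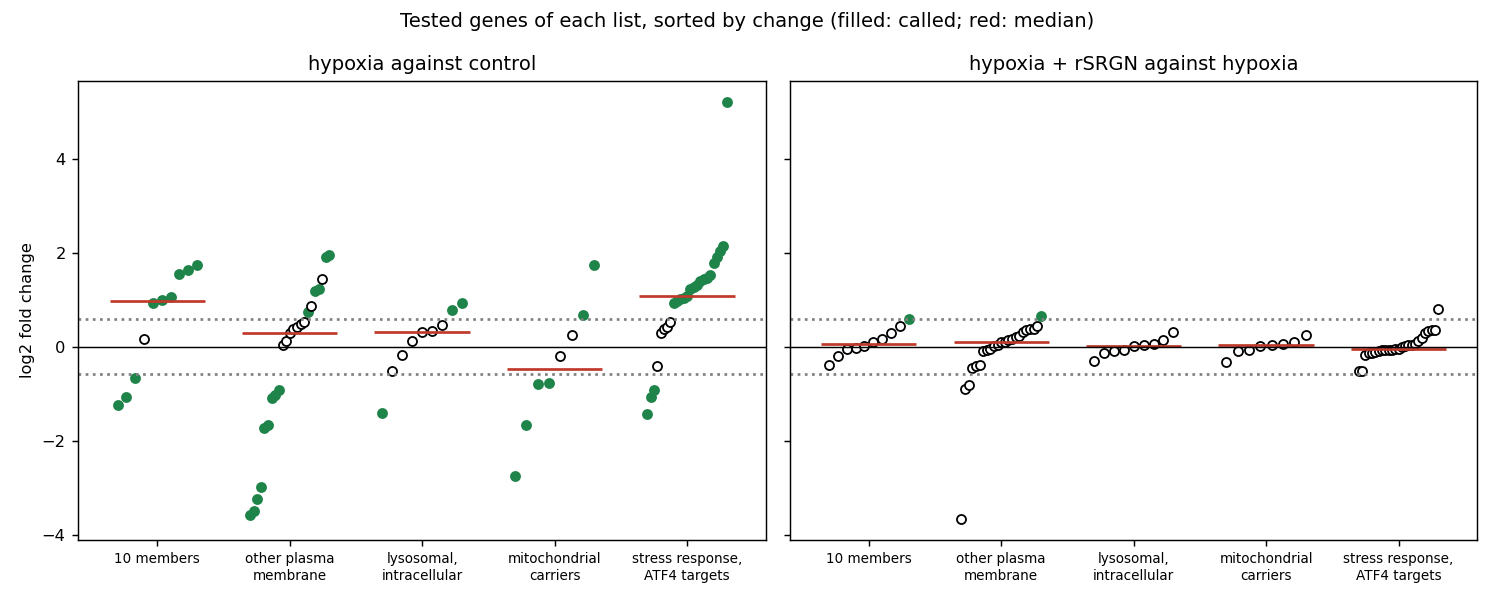
Log2 fold change (vertical axis) of every tested gene in 5 lists, sorted within each list, in hypoxia against control and in hypoxia + rSRGN against hypoxia. Filled points were called, red lines are list medians (0.96 for the 10 transporter genes and 1.09 for stress response genes on the left) and dotted lines mark the 1.5-fold limit.

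Among 25 regulators and targets of the integrated stress response, 17 rose and 3 fell in hypoxia against control, where 26.4% of all genes tested were called higher and 25.1% lower. Their median log2 fold change was 1.09. Atf4 itself went from 201 to 526 CPM (log2 fold change 1.39, SE 0.078, adjusted p = 4.05e-13) and Asns, which makes asparagine, from 86.1 to 213 CPM (1.31, SE 0.071). Ddit3 (1.79, SE 0.11) and Trib3 (1.09, SE 0.10), which act in stress-induced cell death, rose too. Among those that rose were also Atf3 (from 10.2 to 379 CPM, log2 fold change 5.21, SE 0.11) and Chac1, which degrades glutathione (2.14, SE 0.090). Vldlr (-1.44, SE 0.097) and Ddit4 (-1.08, SE 0.096), an inhibitor of mTORC1, fell. In hypoxia + rSRGN against hypoxia, edgeR and DESeq2 called 0 of the 25, where edgeR called 2.27% of all genes tested higher and 0.859% lower. At an unadjusted p below 0.05 were 7, 5 higher and 2 lower, near the 29.4% of all genes tested. At any fold, the adjusted p of edgeR was below 0.05 for genes on both sides, against 16.6% of all genes tested. Higher were Atf3 (log2 fold change 0.33), Cebpg (0.36), Chac1 (0.30) and Vldlr (0.36), and lower were Ddit4 (-0.51) and Stc2 (-0.51). Atf4 had a log2 fold change of -0.07 there (SE 0.076, adjusted p = 0.615), and the list's median was -0.04.

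Of 26 genes of mTORC1, the growth-controlling kinase complex, and of the amino acid sensing upstream of it, 3 were called higher and 8 lower in hypoxia against control, beside 26.4% higher and 25.1% lower over all genes tested. The 8 included the subunits of the complex itself, Mtor, Rptor and Mlst8, named after their values were seen (log2 fold changes -1.25, -0.72 and -0.83). Rragd, a GTPase of the lysosomal sensor, fell from 145 to 24.1 CPM (log2 fold change -2.59, SE 0.083), and the leucine-binding Sesn1 fell as well (-1.78, SE 0.11). Castor1, an arginine sensor, rose (1.31, SE 0.13), while its relative Castor2, also named after its value was seen, fell (-1.66, SE 0.11). Lamtor2 rose (0.68, SE 0.089). Rragd was the gene of this list called in hypoxia + rSRGN against hypoxia, as higher, at 45.4 CPM (log2 fold change 0.91, SE 0.084). It was 1 of the 26, where 2.27% of all genes tested were called higher and 0.859% lower. At an unadjusted p below 0.05 were 12 of the 26, 6 higher and 6 lower, against 29.4% of all genes tested.

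Enzymes that use the carried amino acids were counted in hypoxia against control, where 26.4% of all genes tested were called higher and 25.1% lower. Beside the cationic carriers, of 10 tested enzymes of arginine and polyamines 3 rose and 3 fell, near these shares. Ass1, which makes the precursor of arginine (log2 fold change 1.81, SE 0.10), and the spermidine synthase Srm (1.44, SE 0.076) rose, and the spermine synthase Sms (-1.38, SE 0.10) and Amd1 (-0.88, SE 0.089) fell. Beside Slc1a5 and the SLC38 carriers, of 10 enzymes of glutamine, glutamate and aspartate 3 rose and 3 fell, again near the shares over all genes, among them Gpt2 (0.95, SE 0.091) and the aspartate aminotransferases Got1 (-1.71, SE 0.078) and Got2 (-1.54, SE 0.069).

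Beside the glycine carrier Slc6a9, of 10 enzymes of glycine and glutathione 4 rose and 1 fell, where 26.4% of all genes tested were called higher and 25.1% lower. They included Gldc (log2 fold change 1.54, SE 0.21) and the serine hydroxymethyltransferase Shmt2 (1.03, SE 0.076), which rose, and Dld (-1.24, SE 0.075), which fell. Beside the taurine carrier Slc6a6, of 7 taurine and osmolyte genes 2 rose and 1 fell, near these shares. With rSRGN against hypoxia alone, edgeR and DESeq2 called 0 of the enzymes of arginine, of glutamine and of glycine, with 3, 3 and 0 at an unadjusted p below 0.05, against 29.4% of all genes tested. Of the 7 taurine and osmolyte genes, 5 were at an unadjusted p below 0.05, 3 higher and 2 lower. Of these 7, 1 was called, as higher, where 2.27% of all genes tested were called higher. In hypoxia against control Cdo1, which begins taurine synthesis, rose (0.75, SE 0.11) while Slc6a6 fell, and with rSRGN against hypoxia neither was called (log2 fold change -0.34 for Cdo1 and 0.44 for Slc6a6). Slc5a3, the inositol carrier, had 58.9 to 65.9 CPM in control, 114 to 147 CPM in hypoxia and 202 to 246 CPM with rSRGN. Slc5a3 rose in hypoxia (log2 fold change 1.09, SE 0.094) and again with rSRGN (0.73, SE 0.091, adjusted p = 4.75e-05).

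For each of the 10 genes, the gene with the most similar profile was sought among 14256 genes with a mean of at least 1 CPM, by the Euclidean distance of centred log2 CPM over the 9 libraries. Slc7a1 was nearest to Cflar (distance 0.216), Slc7a3 to Btg3 (0.227), Slc7a5 to Gaa (0.181) and Slc3a2 to Rarg (0.154). Slc1a4 was nearest to the collagen gene Col6a1 (0.117), and Slc1a5 to Rpl14-ps1 (0.120), a pseudogene whose fragments may belong to its parent gene. Slc38a2 was nearest to Med1 (0.237), Slc6a9 to Wdfy1 (0.209) and Slc6a6 to Map2k4 (0.175). The 9 libraries form 3 groups, so that any gene with the same changes between groups comes close, and Cflar for instance had log2 fold changes of 0.15 and 0.55 where Slc7a1 had 0.16 and 0.60.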

How the data were processed

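RNA-seq of 9 NMVM libraries, 3 each in control, hypoxia and hypoxia + rSRGN, was analysed, with groups and replicate numbers taken from the sample titles. The values deposited by the authors are raw counts of fragments for each gene. Per the header, they were made with featureCounts 2.0.1 on exons in paired-end mode, with GENCODE mouse release 25 (GRCm38) and without a strand option. Fragments that match several genes or places are left out by its default. The submitters' processing notes also name HISAT2 and mm10.

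After filterByExpr and TMM scaling, edgeR 4.0.16 (R 4.3.3) was fitted to the counts of all 9 libraries with 1 mean for each group. The quasi-likelihood test was used with Benjamini-Hochberg adjustment over 16762 genes, with calls at 0.05 and 1.5-fold. The script was also tested on simulated data. All 9 columns of counts were used, and 0 were left out. Libraries of a group differed by more than sampling noise (chi-square per degree of freedom 3.63 to 13.1).

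The 10 genes, the lists and the tests were chosen with earlier results of these data known. Named are the 10 genes, in each list of transporters the called genes of at least 1 CPM that led in rise (3) and in fall (3) in the comparisons of hypoxia with control and of the hypoxic groups, in each other pathway list the 2 and 2 in hypoxia against control, Atf4, Asns, Trib3 and Ddit3, and the gene nearest in profile to each of the 10, of which that of Slc38a1 is not reported here. Genes named beside these were chosen after their values were seen. Alternatives were DESeq2 1.42.0, RLE scaling, library size alone, at least 1 count in all, at least 10 counts in every library, no fold limit, a fit of 2 groups alone, a replicate block, and leaving out each library. Promoters came from RefSeq (GRCm38.p6). Figures were drawn with matplotlib 3.10.9.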

Additional observations from a re-analysis of the deposited data

How the results depend on the processing

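Over the 17 alternatives, 9 of the 10 transporter genes were called in hypoxia against control under each, and 9 or 10 in hypoxia + rSRGN against control. In hypoxia + rSRGN against hypoxia the count of 1 became 0 with library size alone and 4 with no fold limit, and it ran from 0 to 1 when a library was left out. With the other plasma membrane transporters, the count in hypoxia against control went from 14 to 9 with at least 10 counts in every library, where fewer genes are tested, and the count in hypoxia + rSRGN against hypoxia from 1 to 2 with no fold limit and from 0 to 1 without a library. Signs turned only for values near 0 that were not called, all in hypoxia + rSRGN against hypoxia. Slc3a2 was at 0.0083 on the log2 scale with DESeq2 and with RLE scaling, and between -0.0481 and 0.028 without a library. Slc1a4 was at -0.017 with library size alone and between -0.0218 and 0.0259 without a library, and Slc6a9 between -0.1242 and 0.0709. Of 510 fold changes of the 10 genes under alternatives, 495 kept their sign and call. Same-numbered libraries did not deviate together (correlations of deviations from -0.037 to 0.021, against -0.048 to 0.046 between libraries of different numbers). No pairing by number was thus seen, which cannot exclude that same-numbered cultures came from the same isolation. With the replicate block 9 of the 10 genes were called against control in hypoxia, 9 against control with rSRGN, and 1 between the hypoxic groups, as without it. Over all genes the block gave 8550, 8096 and 495 calls in that order, against 8644, 8183 and 525. RLE scaling moved the share of calls that were higher in hypoxia + rSRGN against hypoxia from 72.57% to 80.66%. Depth was lowest for Slc7a3, with 212 to 235 counts in control libraries.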

Other observations

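The heavy chain encoded by Slc3a2 serves several light chains, and these did not move alike in hypoxia against control. This group of genes was put together after the values were seen. While Slc3a2 rose by 1.64 on the log2 scale (SE 0.071) and Slc7a5 by 1.00 (SE 0.072), Slc7a8 fell (-1.73, SE 0.35). The other tested light chains were not called, with log2 fold changes of 0.47 for Slc7a6 (SE 0.079, adjusted p = 1.49e-05), 0.43 for Slc7a7 (SE 0.13, adjusted p = 0.00697) and 0.29 for Slc7a11 (SE 0.12, adjusted p = 0.0338). Slc7a11, the cystine and glutamate exchanger and a known target of ATF4, had a log2 fold change of 0.38 in hypoxia + rSRGN against hypoxia (SE 0.12, adjusted p = 0.0296), under the fold limit. Slc7a10, which also binds the heavy chain, had 15 fragments in all 9 libraries and was not tested.

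Slc38a4, another sodium-coupled carrier of neutral amino acids on the list, fell in hypoxia against control (log2 fold change -1.02, SE 0.099, adjusted p = 4.75e-09), as Slc38a1 and Slc38a2 did, and Slc38a3 rose from 1.26 to 2.95 CPM. Slc38a4 too was picked after its value was seen. In hypoxia + rSRGN against hypoxia, Slc38a4 had a log2 fold change of 0.10 (SE 0.10, adjusted p = 0.561). Of the stress response list, Psat1 and Sesn2 were among the 5 not called in hypoxia against control. Both were under the fold limit, with log2 fold changes of 0.53 (SE 0.067, adjusted p = 3.61e-07) and 0.28 (SE 0.11, adjusted p = 0.0215).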
